A study of Mus musculus with 2 samples.

Results

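Gremlin-1 and 7 other secreted antagonists of bone morphogenetic proteins (BMPs) were followed on arrays of mouse primary chondrocytes before and after mechanical loading. The 8 genes were Grem1, Nog, Chrd, Fst, Fstl3, Bmper, Twsg1 and Sostdc1. A probe was taken as theirs when it was not a control and its accession, without the version, was a RefSeq transcript of the gene. This gave 9 probes of 55678 on the array, and the 8 genes were among 20656 that could be named. Sostdc1 had 2 probes and each other gene had 1, and the brighter probe stood for the gene. On both arrays, all 8 genes were well above background and are called detected.

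The chondrocytes came from C57BL/6J mice that were 6 days old and were not genetically altered as far as the labels state. They were grown for 48 h on stretch chambers of silicon with a fibronectin coating. RNA was taken once before loading and once 24 h after the cells had been stretched by 10% at 0.5 Hz for 30 min, and each RNA was hybridised to 1 array. With 1 array per time point there was no replicate check, and no test or p-value is given. An unloaded culture at 24 h was not analysed here, so that loading and a further 24 h in culture cannot be told apart.

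BMPs are secreted growth factors that bind pairs of receptor kinases at the cell surface and act through Smad proteins. They drive the formation of cartilage and the maturation of chondrocytes. Antagonists hold BMPs, or the related activins, in the extracellular space and keep them from their receptors. Their balance with the ligands is known to shape joints and the growth plate. The study asked which genes respond to excessive loading of chondrocytes and turned to gremlin-1 from these arrays.

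Of the 8 antagonists, Grem1 was more than 2-fold higher at 24 h and Fst was just past 2-fold lower. The other 6 stayed within 2-fold. Of all 14218 detected genes, 0.668% passed 2-fold upwards and 1.83% downwards, against 1 of 8 in each direction here, in a set that holds a gene the study had picked from the same arrays. Including Grem1, 5 of the 8 were higher and 3 were lower, and the median log2 ratio was 0.20, against 47.6% higher and a median of -0.01 over all detected genes. Log2 intensities were set relative to the array's 75th percentile (466.4 before loading and 466.2 at 24 h), and a positive log2 ratio means a higher value at 24 h. The error given is that of the scanner software for both spots and covers within-array error only. Apart from Sostdc1, it was 10.0% to 10.5% of the intensity of each antagonist's spot. It was therefore nearly the same from gene to gene and is not a spread measured for each gene.

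The label of the cells was set against marker genes. All 14 chondrocyte markers were detected, and their summed intensity, in multiples of the 75th percentile of each array, was 3232 before loading and 3267 at 24 h. Of these 14, 10 were higher and 4 lower at 24 h, or 11 and 3 with median scaling, all within 2-fold. The largest difference in the list, named after its value was seen, was that of Col11a1, a collagen of cartilage fibrils, with -0.82. Acan, the core protein of aggrecan, had a log2 ratio of 0.34, and Sox9, the transcription factor of chondrocytes, had 0.22. Col2a1, the main cartilage collagen, had -0.07, and up to 0.12 under other settings. All 5 fibroblast markers were detected too, with sums of 284.7 and 286.9. The sums were 63.8 and 61.8 for 7 macrophage markers, all detected. The brightest of 3 Itgam probes gave 85.6% of the sum before loading, while the other 2 Itgam probes were at 49.0 and 70.4, and without Itgam the sums were 9.17 and 8.72. Of the 7 macrophage markers 3 were higher and 4 lower, or 5 and 2 with median scaling. For 5 endothelial markers the sums were 27.7 and 26.9, of which Cdh5, Tek and Emcn were detected on neither array and Kdr gave most of the sum. The osteoblast list gave 2.66 and 2.87 with 3 of 4 markers detected, and the skeletal muscle list 4.01 and 3.31 with 4 of 6. Dmp1, Myod1 and Ckm were the markers of these lists that were not well above background. Of the 3 detected osteoblast markers, 1 was higher and 2 lower. Of the 4 detected skeletal muscle markers, 1 was higher and 3 lower. The detected fibroblast markers were split 4 higher and 1 lower, or 5 and 0 with median scaling. The 2 detected endothelial markers were split 1 and 1, or 2 and 0 with median scaling. Bglap2, named after its value was seen, gave 72.4% of the osteoblast sum before loading. Without Bglap2 the osteoblast sums were 0.73 before loading and 0.25 at 24 h. Ptprc, a pan-leukocyte gene at a dim probe, went from 20.9 to 46.1, a log2 ratio of 1.14 that was 0.40, inside 2-fold, with normexp background correction. Ibsp, a bone matrix gene, went from 258.7 to 61.9, a log2 ratio of -2.06, and was past 2-fold under all 8 alternatives. Its second probe had -2.37 and was not well above background at 24 h. The part of other cells in the results was not tested. In RNA from whole cultures, fewer cells of a type and less RNA per cell cannot be told apart.

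**Figure D1:**
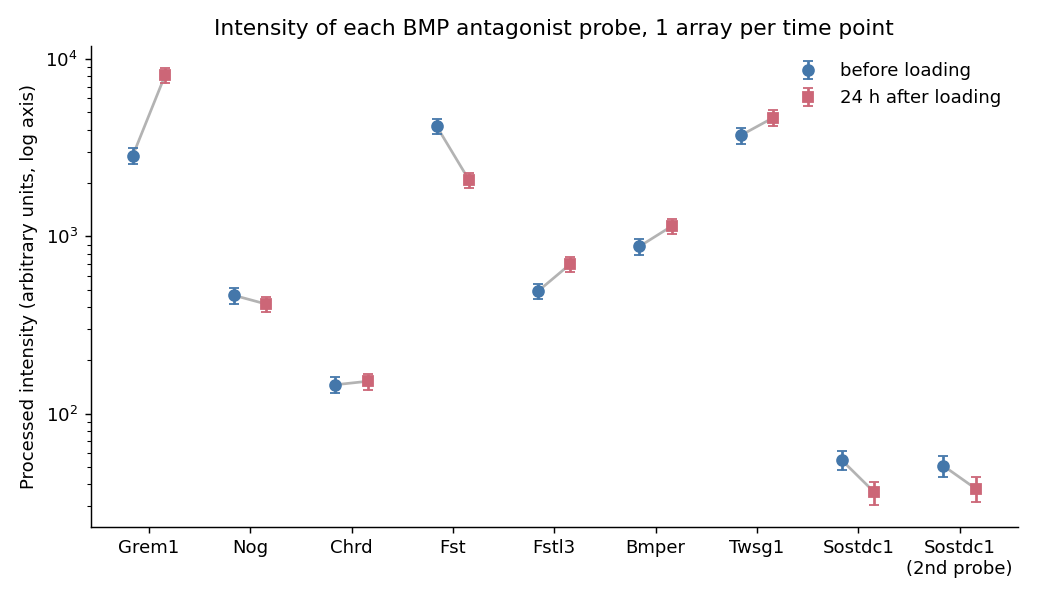
Processed intensity in arbitrary units on a log axis for each of the 9 probes, with circles for the array before loading and squares for the array at 24 h; bars are the scanner software's error of the spot. Grem1 rose from 2850 to 8125 and Fst fell from 4180 to 2074, while the bars of Nog and of Chrd overlapped between the arrays. Heights of different probes cannot be compared.

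Grem1 encodes gremlin-1, an antagonist of the DAN family that binds BMPs through a cystine knot. Its intensity was 2850 ± 285 (software error) before loading and 8125 ± 813 at 24 h. The log2 ratio was 1.51 ± 0.20 (within-array error), or 2.85-fold, and 1 error to either side gave 2.48-fold to 3.29-fold. It passed 2-fold by more than 2 errors, as 0.176% of detected genes did upwards and 0.696% downwards, and Grem1 was the only antagonist that did. It ranked 23 from the top of the 14218 detected genes. The log2 ratio of Grem1 was 2.52 ± 0.29 above that of Fst on the log2 scale, and 1.001 above that of Fstl3, the next highest of the antagonists. The difference between Grem1 and Fst lay between 2.42 and 2.53 over 8 other ways of processing. Most of these could hardly move it, because a constant per array cancels in a difference and each of the 2 genes had 1 probe. The 5 genes past 2-fold whose log2 ratio lay nearest to that of Grem1 over the 2 arrays were Adora1, Cidea, Cryga, Retn and Dmtn, at a distance of 0.02 to 0.06. Apart from Cidea, these had intensities between 27.2 and 50.4 before loading.

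The promoter of Grem1 is shown because Grem1 was the antagonist past 2-fold under every setting, and that of Fstl3 because it had the next highest ratio. Both are the 250 bases before the start of the gene in RefSeq (GRCm38.p6), on the minus strand at chr2:113758649-113758898 for Grem1 and on the plus strand at chr10:79777024-79777273 for Fstl3. Capitals mark the GC box GGGCGG and the TATA box TATAAA on either strand.
Grem1: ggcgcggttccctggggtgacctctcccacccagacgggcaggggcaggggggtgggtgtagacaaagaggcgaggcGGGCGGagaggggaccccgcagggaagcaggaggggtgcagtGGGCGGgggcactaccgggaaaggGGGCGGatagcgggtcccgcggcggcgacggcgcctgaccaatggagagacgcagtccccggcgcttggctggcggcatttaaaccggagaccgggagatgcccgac
Fstl3: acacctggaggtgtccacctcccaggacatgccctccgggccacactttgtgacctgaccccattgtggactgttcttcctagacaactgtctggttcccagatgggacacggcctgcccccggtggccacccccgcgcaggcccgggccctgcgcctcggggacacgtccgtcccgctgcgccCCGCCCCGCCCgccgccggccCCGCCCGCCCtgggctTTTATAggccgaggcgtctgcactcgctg
The Grem1 window held 3 GC boxes, 24 CpG and 72% G and C. The medians over all promoters were 6 CpG and 52.4% G and C. The Fstl3 window held 4 GC boxes, which overlap in 2 pairs, and 1 TATA box. Promoters were at hand for 5 of the 8 genes, the others being Chrd, Bmper and Twsg1. All 5 held a GC box, which 32.7% of 32851 promoters held in the same window. The 5 windows were 64.4% to 78% G and C, and promoters of like G and C content were not compared. The NF-κB consensus, searched on both strands because the study concerns that pathway, matched in 0 of the 5 and in 3.9% of all promoters, and the AP-1 motif TGANTCA in 0 of the 5 and in 6.75%. No match says only that these letters are not in this window. The NF-κB motif that the study mapped in human GREM1 lies further from the start than the 250 bases read here. The search did not cover that position and does not bear on it.

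The products of Nog, Chrd, Bmper and Twsg1, like gremlin-1, act on BMPs outside the cell, and none of the 4 genes passed 2-fold. Nog encodes noggin, which binds BMPs and GDF5 and is required for joints to form. Its intensity was 465 ± 47 before loading and 415 ± 42 at 24 h, a log2 ratio of -0.16 that was smaller than its error of 0.20. Gdf5, the noggin ligand and named after its value was seen, had a log2 ratio of 0.82, and 0.86 on its second probe. The log2 ratio of Nog minus that of Gdf5 was -0.99 with an error of 0.29.

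Chrd encodes chordin, whose cysteine-rich domains hold BMPs until proteases of the tolloid type cut it. It was at 146 ± 15 before loading and 152 ± 16 at 24 h, and the log2 ratio of 0.07 was smaller than its error of 0.21. Within 100 µm of the spots of the 9 probes lay 27 to 29 other spots, dim ones included. Of these, 0 to 2 were more than 2-fold higher and 0 to 3 lower, except near Chrd, where 6 of 29 were lower. Of all spots, 3.22% were more than 2-fold higher and 5.60% lower. Twsg1 encodes twisted gastrulation, which joins chordin and BMPs in a complex and can aid or oppose the signal. It went from 3712 ± 371 to 4671 ± 467, a log2 ratio of 0.33 with an error of 0.20. The log2 ratios of Chrd and Twsg1 differed by -0.27, less than the error of that difference, 0.29.

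Bmper encodes the BMP-binding endothelial regulator, which, like twisted gastrulation, can favour or block the signal. It went from 878 ± 88 to 1143 ± 114, a log2 ratio of 0.38 with an error of 0.20, and 8.91% of detected genes had a higher one. Twsg1 and Bmper had values 1.26-fold and 1.30-fold higher at 24 h, and the log2 ratios of both were less than 2 errors from 0.

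Fst and Fstl3, the follistatin genes, differed in direction. Follistatin binds activins most tightly and also binds BMPs, and follistatin-like 3 binds activins and related ligands. Fst was at 4180 ± 418 before loading and 2074 ± 207 at 24 h, a log2 ratio of -1.01 with an error of 0.20, or 2.01-fold lower. It lay on the edge of 2-fold. With normexp background correction, median, quantile, loess or spike-in scaling it came inside, up to -0.91, and it did not pass 2-fold by 2 errors. Of all detected genes, 1.77% had a lower log2 ratio. Fstl3 went from 491 ± 49 to 699 ± 70, a log2 ratio of 0.51 or 1.43-fold with an error of 0.20. The difference between Fst and Fstl3 was -1.52 on the log2 scale with a within-array error of 0.29, and -1.52 to -1.46 under the other settings, most of which could hardly move it.

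Sostdc1 encodes a relative of sclerostin that binds BMPs and also the Wnt co-receptors. Both its probes lay close to the background, and their within-array errors were the largest among the 9 probes. The brighter probe went from 54.5 ± 6.7 to 36.0 ± 5.3, a log2 ratio of -0.60 with an error of 0.28. The other probe went from 50.8 ± 6.8 to 37.7 ± 6.0, a log2 ratio of -0.43 with an error of 0.30. Both probes had lower values at 24 h, by 2.16 errors on the brighter and 1.43 on the other. With normexp correction the log2 ratio of the brighter probe was -0.20, within its error. Both probes lay above the dimmest intensities that counted as detected, which were 17.3 before loading and 17.8 at 24 h. At 24 h both lay below the brightest of the negative control spots, which was at 117.

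**Figure D2:**
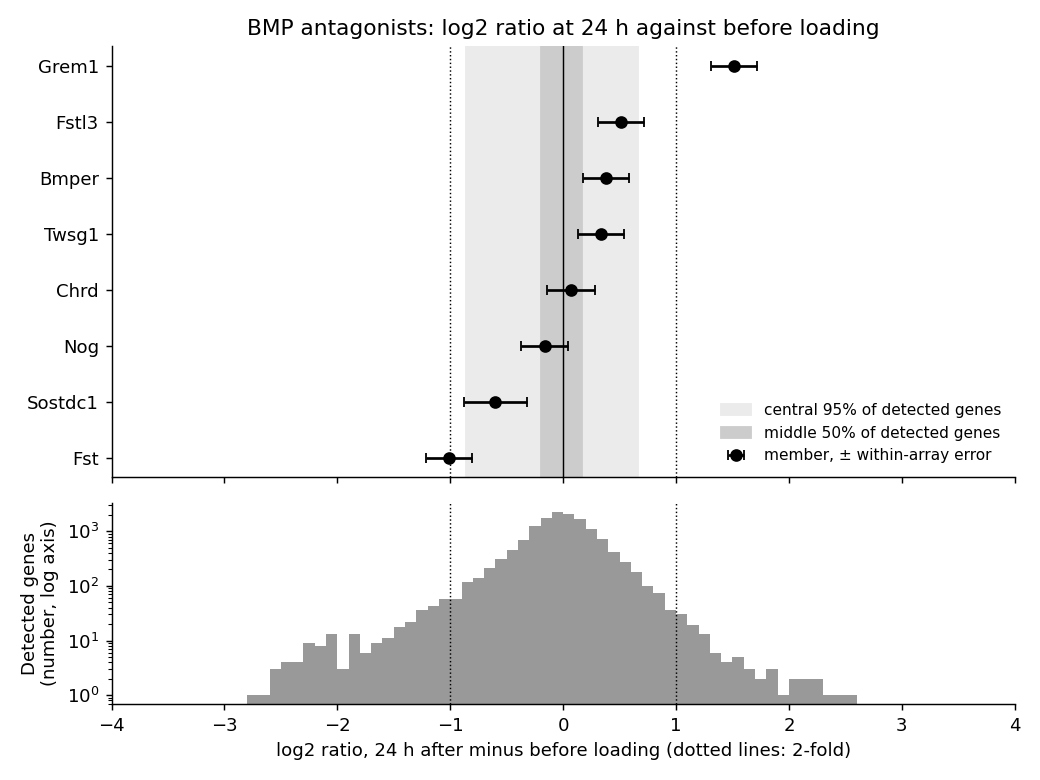
Log2 ratio of the 8 antagonists (24 h after minus before loading; points with bars of 1 within-array error), over grey bands for the middle 50% and central 95% of the 14218 detected genes; the lower panel counts those genes per bin of log2 ratio on a log axis. Grem1 at 1.51 and Fst at -1.01 lay outside the central 95% (-0.86 to 0.66), Fstl3, Bmper, Twsg1 and Sostdc1 between it and the middle 50%, and Nog and Chrd inside the middle 50%.

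A log2 ratio beyond 0.5 in either direction was found in 4 of the 8, Grem1, Fst, Sostdc1 and Fstl3, and in 13% of all detected genes. Fstl3 was just past this cutoff at 0.51, and Sostdc1 came inside it with normexp correction (-0.20). The study had picked Grem1 from the same arrays, and the members were chosen with earlier results known. The counts of this paragraph therefore cannot show that the set differs from other genes. The log2 ratio was larger than its own error in 6 of the 8 and in 43.4% of detected genes, and larger than 2 errors in 4 of the 8 and in 17% of detected genes. The median error was 0.20 both for the 8 and for all detected genes, so that these are close to shares past fixed log2 cutoffs. These shares describe 2 arrays and depend on the scaling. With median or spike-in scaling, Twsg1 and Bmper passed 2 errors. Sostdc1 did not pass 2 errors with normexp correction, with median, quantile, loess or spike-in scaling, or with the mean over probes. As a further measure of precision, 264 probes had at least 8 detected spots, and their median SD between spots was 0.09 in log2 ratio, below the error of 0.20 to 0.28 that the software gave for the 8 genes.

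**Figure D3:**
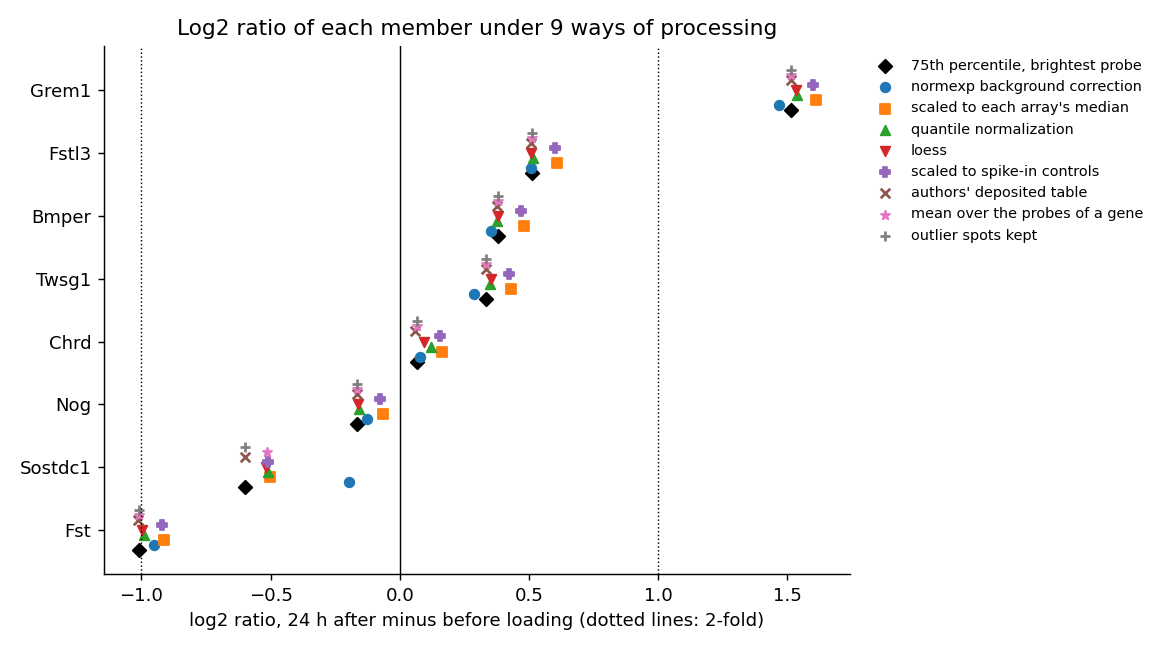
Log2 ratio of each antagonist under 9 ways of processing, with diamonds for the values of the text and other symbols for the 8 alternatives; dotted lines mark 2-fold. Grem1 stayed between 1.47 and 1.61, Fst crossed the 2-fold line (-1.01 to -0.91), and the normexp value of Sostdc1 (-0.20) stood apart from its others.

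The other genes of the pathway followed from 5 lists by role. Of 85 genes listed, 69 were detected, of which 37 were higher and 32 lower, with a median log2 ratio of 0.01, beside 47.6% of all detected genes higher. This split depended on the scaling, and with median scaling 50 were higher and 19 lower, with a median of 0.11. Median scaling moved all genes, and 63.1% of all detected genes were then higher, with a median of 0.08. The split of the 8 antagonists was 5 and 3 under all 8 alternatives. One gene, Bmp4, was more than 2-fold higher and 0 were more than 2-fold lower.

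Among 19 further antagonists and modulators, 12 were detected, 9 higher and 3 lower, all within 2-fold, with a median of 0.18. The highest was Smoc1, a BMP-modulating matricellular protein, which went from 1040 to 1934 (log2 ratio 0.90). The lowest was Nrros, which acts on latent TGF-β, with -0.31. Cer1, Sost, Fstl4, Fstl5, Vwc2 and Bambi were detected on neither array. Vwc2l was well above background at 24 h alone, at least 2.86-fold higher there, with 49.5 against 4.12 before loading. A bound of this kind sets the 24 h value over the lowest intensity that counted as well above background before loading. It is approximate, because detection was judged spot by spot, and Sost, at 21.5 before loading, was not well above background. The brightest of 308 negative control spots was at 28.1 before loading and at 117, above Vwc2l, at 24 h.

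Of the 24 ligands, 18 were detected, 6 of them higher and 12 lower, with a median of -0.12, or 8 and 10 with median scaling. Bmp4, a ligand that gremlin-1 binds, went from 786 to 1901, a log2 ratio of 1.28 with an error of 0.20. Its second probe was not well above background, and the mean over both probes was 0.66. Grem1 and Bmp4 differed by 0.24, less than the error of 0.29, but by up to 0.85 under other settings, with the mean over probes. Bmp2, another ligand of gremlin-1, was at 393 and 382, with -0.04, and up to 0.06 under other settings. Bmp7 was the lowest of the ligands and went from 1156 to 713, a log2 ratio of -0.70. The log2 ratio of Grem1 was 1.55 above that of Bmp2 and 2.21 above that of Bmp7, both with an error of 0.29. Gdf6 and Gdf11 were well above background at 24 h alone, at least 3.60-fold and 5.56-fold higher by the same approximate bound, at dim probes of 62.3 and 96.1, both below the brightest negative control spot of that array.

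Of the 5 detected genes for inhibin and activin subunits, named after their values were seen because follistatin binds activins, 4 were lower at 24 h and 1 was higher, each with the same sign under all 8 alternatives. Inhba went from 1258 to 916, a log2 ratio of -0.46, and Inhbb from 116 to 165, a log2 ratio of 0.51. Inha, Inhbc and Inhbe had -0.30, -0.47 and -0.50, the first 2 at dim probes. With normexp correction Inha and Inhbc came to -0.14 and -0.05, and the error of Inhbc was 0.34. The log2 ratio of Fst minus that of Inhba was -0.55 with an error of 0.29, and minus that of Inhbb it was -1.52 with an error of 0.30.

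The proteases, receptors and downstream genes stayed within 2-fold. Of 6 genes listed as proteases and enhancers, 5 were detected, with log2 ratios from -0.01 for Pcolce, up to 0.15 under other settings, to 0.35 for Bmp1. Whether each of these acts on chordin was not tested. The 2 other Bmp1 probes had 0.13 and -0.13. Of 16 receptors and co-receptors 14 were detected, and they ranged from -0.33 (Acvr1b) to 0.26 (Acvr2b) with a median of 0.07, 9 higher and 5 lower, or 13 and 1 with median scaling. The Acvr1b probe was dim, at 37.7 and 30.1, with an error of 0.31, and its log2 ratio was -0.09 with normexp correction. Kdr, a VEGF receptor that gremlin-1 can also bind and named after its value was seen, was at 12774 and 12375 on its brighter probe, with a log2 ratio of -0.05 (up to 0.06 under other settings), and its second probe was not well above background.

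All 20 Smads and BMP target genes were detected, 9 higher and 11 lower, with a median of -0.01, or 14 and 6 with a median of 0.09 under median scaling. Id3, a direct target of BMP signalling, was the highest at 0.62 and went from 5183 to 7955. Id1 and Id2 of the same family had 0.15 and 0.12, both below their errors of 0.20, and Id4, named after its value was seen, had 0.28 with an error of 0.20. All 4 Id genes were higher under all 8 alternatives. Smad7, an inhibitory Smad that BMP and TGF-β signals induce, was the lowest at -0.75 and went from 357 to 212, and Smad6, the other inhibitory Smad, had -0.22.

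**Figure D4:**
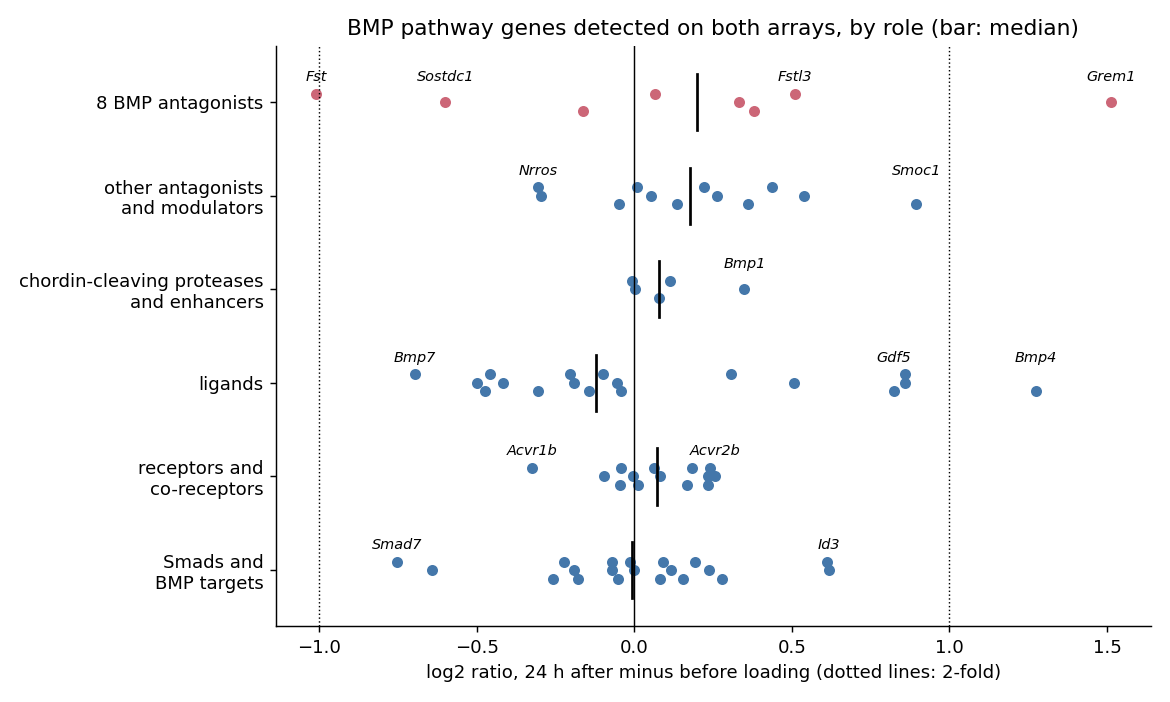
Log2 ratio (24 h after minus before loading) of each detected gene, with 1 point per gene, in 6 rows by role; vertical bars are medians and dotted lines mark 2-fold. The antagonists span -1.01 to 1.51, the ligands -0.70 to 1.28 and the receptors -0.33 to 0.26. Row names are those of the lists, and the action of each gene, such as on chordin, was not tested.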

How the data were processed

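Total RNA was labelled with Cy3 and hybridised to SurePrint G3 Mouse Gene Expression arrays. Per the file headers, the authors extracted the intensity of each spot with Agilent Feature Extraction 10.10.1.1, with background subtraction and without normalization between arrays. Both arrays were on one slide, and their design was annotated to mm9. The authors' deposited table holds these intensities rounded, within 0.497% of the scanner values. Of 59305 spots, those flagged as outliers on either array (141 and 138) were left out, spots of a probe were averaged as log2 intensities, and the 75th percentile of each array was subtracted. No spot was saturated. Probes were named through RefSeq (GRCm38.p6), used for names and promoter sequences. Precision is limited by the number of arrays.

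The members, the pathway lists and the alternatives were chosen with earlier results of these data known. Named genes are the members, the pathway genes past 2-fold, the highest and lowest of each list with fewer than 3 such genes, Bmp2, Bmp4, Bmp7, Id1, Id2, Id3, Smad6, Smad7, 3 chondrocyte markers, and markers of other cells past 2-fold; others are said to have been named after their values were seen. Of the markers, Cd68 and Bglap had no named probe. One gene of the pathway was left out of the lists and is not reported here. The step that counts genes past 2-fold was tested on simulated data, which bears on the computation only. Tools were Python 3.11.15, numpy 2.4.6, pandas 2.3.3 and scipy 1.17.1, and limma 3.58.1 in R 4.3.3 for normexp (offset 50), quantile and loess scaling.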

Additional observations from a re-analysis of the deposited data

How the results depend on the processing

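A total of 8 alternatives were run for the log2 ratios and 3 more for the counts. Normexp used the median spot intensity. All 8 antagonists kept their direction under all 8. The deposited table and the keeping of outlier spots could hardly move their values. The mean over probes could move Sostdc1 alone, the only antagonist with more than 1 probe. Grem1 moved between 1.47 and 1.61 and Fst between -1.01 and -0.91, by less than their errors, and Sostdc1 moved by more than its error with normexp correction alone (-0.20). The count of antagonists past 2-fold stayed at 1 higher, Grem1, under all 11. The count past 2-fold lower was 0 in place of 1 with normexp correction, median scaling, quantile normalization, loess, spike-in scaling and the allowance of 2 errors, since Fst then came inside. The count of other pathway genes past 2-fold was 1 higher and 0 lower. It was 0 higher with the mean over probes and with the allowance of 2 errors, 4 higher with detection on at least 1 array, and 4 higher and 1 lower with no filter on dim probes, which add genes that are not well above background on both arrays. No paired analysis was possible because each time point has a single array. Signal over background limits Sostdc1 and the dim ligands.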
